A study of Mus musculus with 9 samples.

Results

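This comparison set the glomeruli of diabetic mice given enarodustat against those of healthy, untreated mice: the 3 arrays of ob/ob mice with enarodustat and the 3 arrays of wild-type mice with vehicle, 6 of the 9 arrays of the study, chosen by their sample titles. All mice were male, of the BTBR strain, and 22 weeks old. Wild-type mice and a further ob/ob group of 3 received food with vehicle, and the third group received food with enarodustat, for 18 weeks. The ob/ob genotype removes functional leptin, and on the BTBR background it gives obesity, type 2 diabetes and a progressive glomerular disease. No wild-type group with enarodustat was among the samples. Each difference below is therefore the sum of genotype and drug, and the 2 parts cannot be told apart within this comparison. The ob/ob vehicle arrays are given beside it, and their own difference was taken from the same wild-type arrays. The labels do not say whether a sample was 1 mouse or a pool of mice, so p-values measure the spread between these samples, which may be partly technical.

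The glomerulus is the filter of the kidney. Its capillaries are lined by fenestrated endothelium, held together by mesangial cells and wrapped by podocytes, whose foot processes are joined by the slit diaphragm. In diabetic kidney disease podocyte products decline, matrix accumulates and leukocytes enter. Enarodustat blocks the oxygen-dependent enzymes (prolyl hydroxylases) that send the alpha subunits of hypoxia-inducible factor (HIF) to be degraded. Stabilised HIF is known to raise genes of glycolysis, erythropoiesis, iron handling and mitophagy.

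Glomeruli were isolated with magnetic beads (Dynabeads), and total RNA was labelled with Cy3 and hybridised to 1-colour Agilent arrays. Levels are given throughout as the log2 of the processed signal minus the 75th percentile of its array, so a level of 0 is that percentile, and a difference of 1 is a 2-fold difference. The 75th percentile lay between 210.4 and 325.3 signal units, and 62.3 to 68.3% of probes were well above background, with none saturated. The number of arrays limits the precision. Arrays correlated between 0.978 and 0.987 within groups and between 0.970 and 0.980 across the wild-type and enarodustat groups. The podocyte markers Nphs1, Wt1, Synpo and Podxl were well above background on all 9 arrays, and each of the 49 genes on the podocyte list passed the filter on dim probes. The Lep probe read -0.64, -1.03 and -0.75 in wild type and -0.91, -0.93 and -1.05 with enarodustat. The ob allele carries a premature stop codon, so this mRNA level does not check the genotype. Enarodustat array 3 was on a slide and in a scan of its own, and the other 8 arrays shared a slide. Within that slide all wild-type arrays lay in 1 row of array positions, and enarodustat arrays 1 and 2 lay in the other.

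Of 24153 features tested, which are genes or unnamed probes, 2461 (10.2%) differed between enarodustat-treated ob/ob and wild-type glomeruli at a limma adjusted p under 0.05, and these are the features called below. Of them, 1473 were higher in enarodustat-treated ob/ob mice (6.10% of those tested) and 988 were lower (4.09%). These 2 shares are the background for each count of list members below. A difference of at least 2-fold was found for 1127 of the called features, 733 higher and 394 lower. At least 4-fold were 172 higher and 42 lower features. The median difference over all features was -0.006, with a median standard error of 0.168, and the smallest difference called was 0.359. In 30.8% of features the 3 enarodustat arrays did not overlap the 3 wild-type arrays, with 16.8% of features entirely higher and 14.0% entirely lower. Leaving out 1 array lowered the number of calls to 1215 without wild-type array 2, 1449 without enarodustat array 1, 1592 without enarodustat array 2 and 1365 without enarodustat array 3. In every one of the 9 fits that left out 1 array, 937 features (3.88%) were called, 576 higher (2.38%) and 361 lower (1.49%). With the row on the slide as a block, 1151 features were called. This block put enarodustat array 3 in the row of the wild-type arrays, although it was on another slide. The difference in that fit therefore leans on enarodustat array 3 and on the vehicle arrays, which lay in both rows. The difference of ob/ob vehicle from wild type gave 1181 higher (4.89%) and 643 lower features (2.66%). Between the 2 ob/ob groups limma called 0 features at an adjusted p under 0.05, the smallest adjusted p was 0.204, and 1692 features (7.01%) had an unadjusted p under 0.05.

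**Figure D1:**
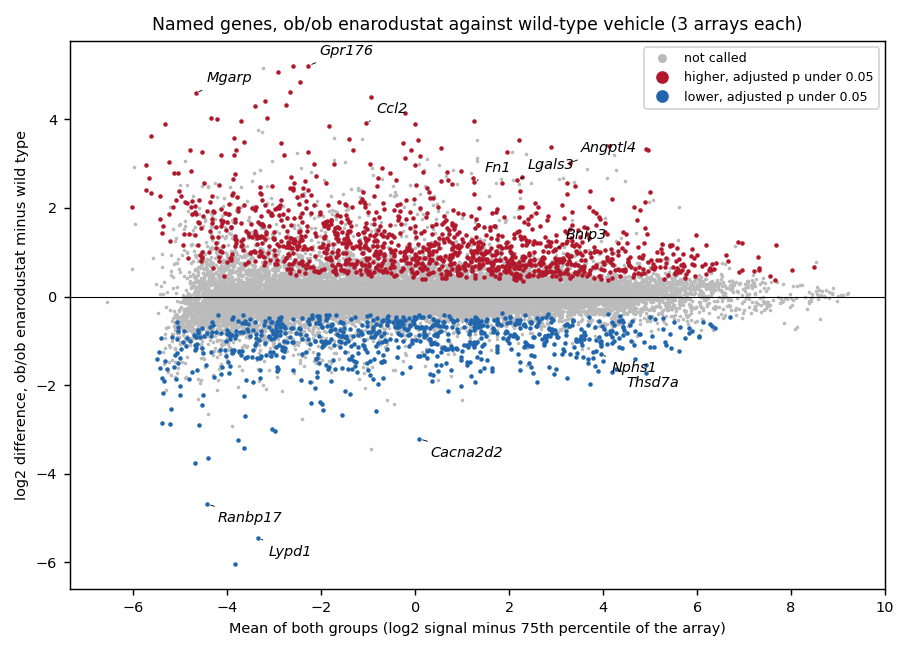
Difference between the ob/ob enarodustat and wild-type vehicle means (y axis, log2) against the mean level of both groups (x axis, log2 signal minus the 75th percentile of the array) for the 18401 features with a gene name. Red points are higher and blue points lower at a limma adjusted p under 0.05, grey points are not called, and the median difference over all features is -0.006.

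The 15 largest fitted rises were in genes of varied roles. They were taken from genes called with any 1 array left out whose groups did not overlap, with predicted and clone names skipped. The G protein-coupled receptor gene Gpr176 read -4.56, -5.02 and -5.06 in wild type, 0.99, 0.57 and 0.90 in ob/ob vehicle and 0.47, 0.17 and 0.36 with enarodustat. Both ob/ob groups lay far above all wild-type arrays, and the enarodustat difference from wild type was 5.21 ± 0.18 (SE, adjusted p = 1.58e-05), or 37.1-fold. Its probe lies on chromosome 2 at 118103043 to 118103102 (minus strand, mm9, the build of the array files, for which no annotation was used here). In wild type 2 of 3 arrays read it well above background. Gabra3, for a GABA-A receptor subunit, and Qrfpr, the receptor for the neuropeptide QRFP, were well above background on 1 of 3 wild-type arrays, so the size of their rises, 36.7- and 33.4-fold as measured, rests on values near background and has no order against the others. Gabra3 went from -5.91, -4.53 and -5.16 to 0.51, -0.20 and -0.32.

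Ccl2, the chemokine that draws monocytes, read -2.82, -3.46 and -2.74 in wild type, 1.80, 1.26 and 1.75 in ob/ob vehicle and 0.75, 1.18 and 0.79 with enarodustat. It rose 15.04-fold against wild type (3.91 ± 0.24, adjusted p = 0.000499). All enarodustat arrays lay below all vehicle arrays, but that difference of -0.70 had an adjusted p of 0.708. Rgcc, a regulator of the cell cycle, rose 14.9-fold, Galnt3, which starts O-linked glycosylation of proteins, 11.8-fold, and Tent5b, a poly(A) polymerase, 22.6-fold. Clca3a2, a chloride channel accessory protein that 2 of 3 wild-type arrays read well above background, rose 19.99-fold, and Vwa3a and Tmem232 rose 17.6- and 14.5-fold. Where no array of a group read a probe well above background, the fold is only a lower bound, from the lowest signal well above background on those arrays. Such rises were at least 18.0-fold for Ripor3, at least 7.16-fold for Bean1, at least 6.89-fold for Mgarp, a mitochondrial protein, and at least 3.44-fold for Hpgds, which makes prostaglandin D2 and was well above background on 2 of 3 enarodustat arrays.

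Defb2 differed from the other large rises in the ob/ob vehicle arrays, where its difference from wild type of 0.93 was not called. This gene of an antimicrobial beta-defensin read -7.12, -5.42 and -4.50 in wild type, -5.89, -4.41 and -3.95 in ob/ob vehicle and -2.34, -1.05 and -1.75 with enarodustat. The enarodustat arrays lay above all others, and the rise against wild type was 3.96 ± 0.71 (adjusted p = 0.0123). Against ob/ob vehicle the difference was 3.03, with an adjusted p of 0.626. The probe was well above background on 1 wild-type and 2 vehicle arrays and on all enarodustat arrays. It therefore passed the filter on dim probes only through the enarodustat group, and the size of its rise rests on values near background.

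Among the 15 largest fitted falls, chosen in the same way, was that of Lypd1. This small membrane protein modulates nicotinic acetylcholine receptors. It read -0.61, -0.45 and -0.79 in wild type, -5.26, -5.81 and -6.13 in ob/ob vehicle and -5.76, -6.76 and -5.68 with enarodustat. No ob/ob array read it well above background, and it fell at least 18.3-fold (adjusted p = 0.000499). Its probe lies on chromosome 1 at 127769282 to 127769341 (minus strand, mm9). Cacna2d2, an auxiliary subunit of voltage-gated calcium channels, fell 9.28-fold, from 1.82, 2.07 and 1.19 to -1.42, -1.77 and -1.37, and all 3 of its probes agreed within -3.26 to -3.21. Falls of at least 7.33-fold, at least 6.61-fold and at least 4.65-fold were measured for Htr7, a serotonin receptor, Ranbp17, of the exportin family, and Grm7, a metabotropic glutamate receptor.

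The other large falls came from genes of varied roles. Itgb8, the integrin beta subunit known for activating latent TGF-beta, read 1.86, 2.10 and 1.99 in wild type and 0.18, -0.21 and -0.05 with enarodustat, a fall of 2.01 ± 0.15 on the log2 scale (adjusted p = 0.000692). Trabd2b, a protease that inactivates Wnt proteins, fell 4.38-fold, Steap4, a metalloreductase, 4.63-fold, and Arsi, an arylsulfatase, 6.52-fold. Enarodustat arrays read Arsi well above background in 1 of 3 and Gpr39 in 2 of 3 cases. Kcnj12, an inward rectifier potassium channel, Gpr39, a zinc-sensing receptor, and the histone deacetylase Hdac9 fell by 1.93 each on the log2 scale. The Gpr39 probe has the same mm9 positions as the Lypd1 probe, on the other strand, so both falls were read at 1 site. The other Gpr39 probe gave -0.83 and was not called when tested by itself. The 4 probes of Hdac9 ranged from -1.93 to -0.40. H2bu2, a histone H2B gene, fell 4.37-fold, and the homeobox gene Cdx2 at least 1.44-fold. Tdrd5, a tudor domain protein, differed from the rest of these genes in the vehicle arrays. It read 4.57, 4.67 and 4.91 in wild type, 3.21, 4.20 and 4.32 in ob/ob vehicle and 2.45, 2.99 and 2.76 with enarodustat. It fell by 1.98 ± 0.29 against wild type, while the vehicle difference of -0.80 was not called and the difference between the ob/ob groups, -1.18, had an adjusted p of 0.626.

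**Figure D2:**
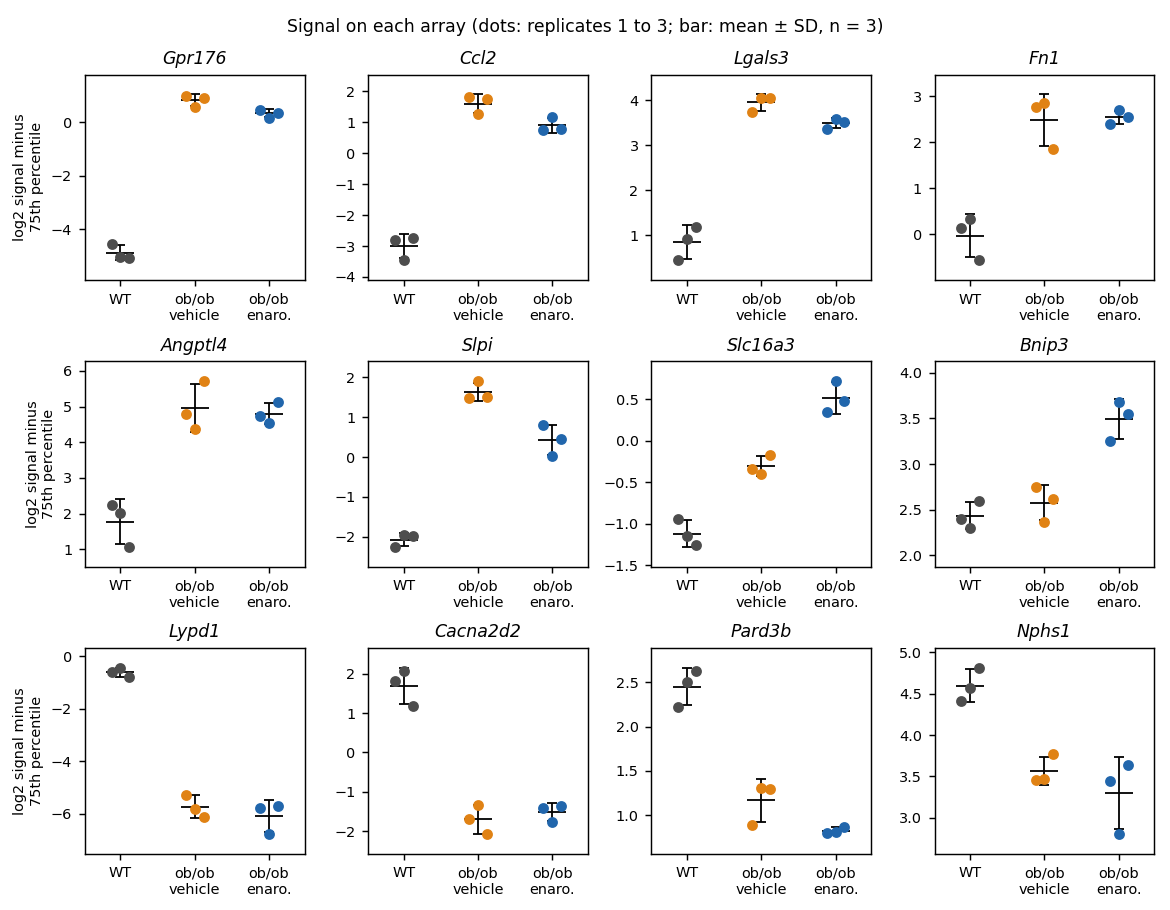
Level of 12 named genes on each array (y axes, log2 signal minus the 75th percentile of the array, with a separate range for each gene) in wild-type vehicle (WT), ob/ob vehicle and ob/ob enarodustat glomeruli. Dots are arrays and bars are mean ± SD (n = 3). In 11 of the genes the ob/ob vehicle arrays lie apart from wild type on the same side as the enarodustat arrays, while for Bnip3 they overlap wild type.

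The podocyte genes that passed the test fell. Of 49 podocyte genes tested, 28 fell, 0 rose, and the median difference was -0.84. Without any 1 array between 22 and 25 fell, 21 fell in all of those fits, and 16 fell with the row on the slide as a block. Nphs1, which codes for nephrin of the slit diaphragm, read 4.41, 4.57 and 4.81 in wild type, 3.46, 3.47 and 3.77 in ob/ob vehicle and 3.45, 2.80 and 3.64 with enarodustat. All ob/ob arrays lay below all wild-type arrays, and the fall with enarodustat was 1.30 ± 0.22 on the log2 scale (adjusted p = 0.0101), or 2.46-fold. Pard3b, a cell polarity protein, fell 3.08-fold, from 2.22, 2.50 and 2.63 to 0.80, 0.82 and 0.87. Thsd7a, a surface protein and autoantigen of membranous nephropathy, fell 3.12-fold. Wt1 and Lmx1b, transcription factors that define podocytes, fell by 1.23 ± 0.21 and 1.29 ± 0.14.

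Magi2, a scaffold of the slit diaphragm, Robo2, a receptor that binds nephrin, and Enpep, the aminopeptidase of angiotensin II on the podocyte surface, fell 2.02-, 2.08- and 2.58-fold. Synpo, the actin-binding synaptopodin, fell by 0.92 ± 0.19, a call lost without wild-type array 2 (adjusted p = 0.0689). Vegfa, made by podocytes for the neighbouring endothelium and a classic HIF target, read 6.01, 6.02 and 6.04 in wild type, 5.05, 5.31 and 5.54 in ob/ob vehicle and 4.83, 4.57 and 5.19 with enarodustat. It fell by 1.16 ± 0.18 (adjusted p = 0.00786). In bulk RNA fewer podocytes and less RNA per podocyte cannot be told apart.

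The ob/ob vehicle arrays gave 18 podocyte genes lower than wild type and 0 higher, with a median of -0.71. The median level of the list was 4.40, 4.57 and 4.42 in wild type, 3.64, 3.77 and 3.77 in ob/ob vehicle and 3.68, 3.32 and 3.84 with enarodustat. The lowest value was that of enarodustat array 2, which was also the enarodustat array with the highest proximal tubule markers, at a median of 1.96 against -0.53 and -0.77. How much tubule RNA contributed to the podocyte values was not tested. With the mean of proximal tubule markers as a covariate the number of podocyte falls stayed within 1.5 times of 28. Without enarodustat array 2 and wild-type array 3 together 22 podocyte genes fell.

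**Figure D3:**
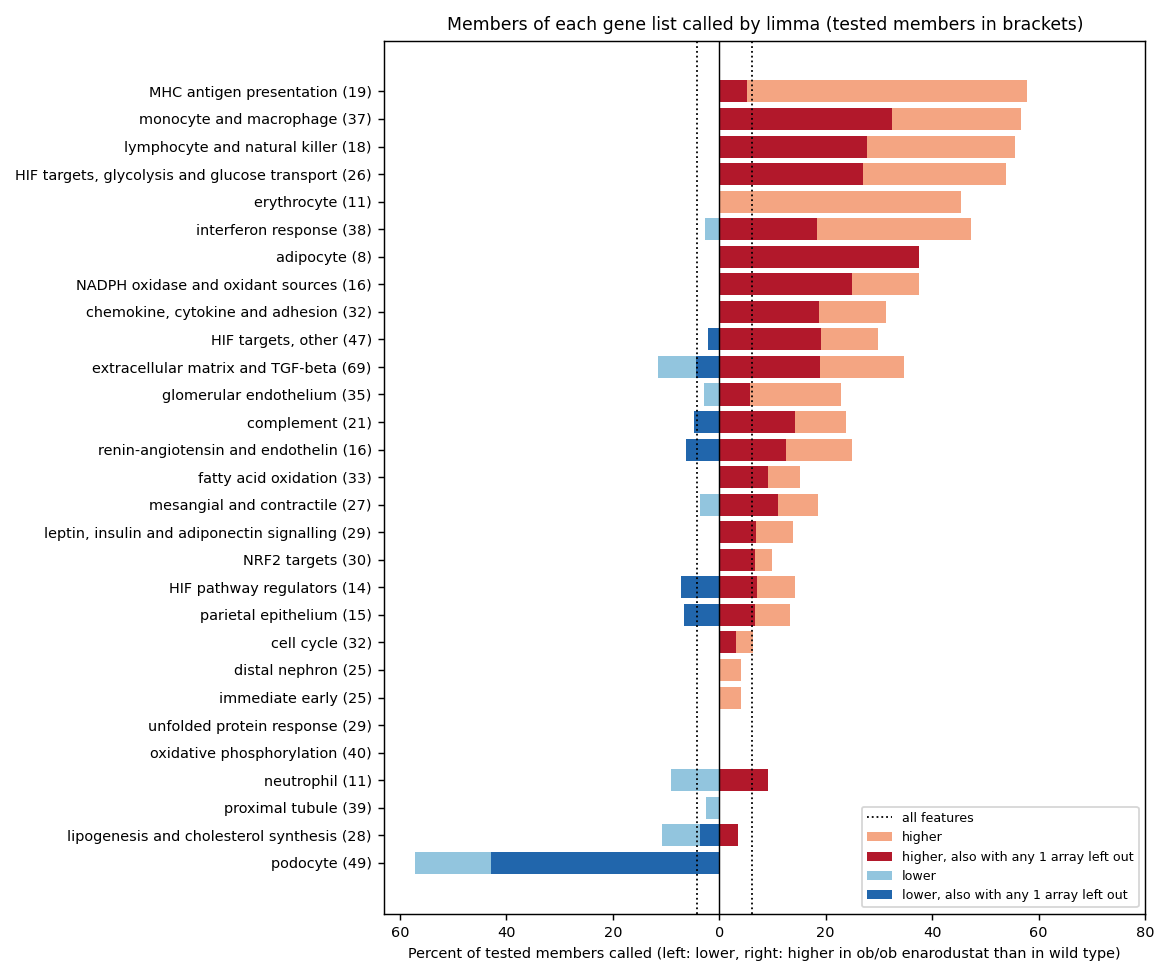
Percent of the tested members of 29 gene lists called higher (right, red) or lower (left, blue) in ob/ob enarodustat than in wild-type glomeruli by limma, with the number tested in brackets. Dark parts are members also called with any 1 array left out. Dotted lines are the share over all features, 6.10% higher and 4.09% lower. The podocyte bar is the longest to the left, with 28 of 49.

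Some endothelial genes rose, while Emcn and Kdr were not called. Of 35 tested 8 rose and 1 fell, with a median of 0.44, against 7 and 1 and a median of 0.39 in ob/ob vehicle. Differences were positive in 31 of the 35. In 21 all enarodustat arrays lay above all wild-type arrays, against 16.8% of all features. The 8 rises became 2 without wild-type array 2, 5 without wild-type array 3, 3 without enarodustat array 1 and 2 without enarodustat array 3. The fall, lost without wild-type array 2 or 3, was in Cldn5, a claudin of tight junctions (-1.15 ± 0.23). Emcn and Kdr, the capillary sialomucin endomucin and the main VEGF receptor, read at differences of 0.04 ± 0.10 and 0.09 ± 0.12. The rises called with any 1 array left out were Gpihbp1, which anchors lipoprotein lipase to capillaries, and Fabp4, a fatty acid carrier. Gpihbp1 went from 2.66, 2.50 and 2.41 in wild type to 4.68, 4.94 and 5.12 with enarodustat, which is 5.24-fold. Fabp4 went from 2.53, 2.83 and 1.92 to 5.99, 5.47 and 6.03, which is 10.6-fold. In ob/ob vehicle Gpihbp1 read 4.90, 4.55 and 5.48 and Fabp4 6.03, 4.33 and 5.66, also above all wild-type arrays. Robo4, an endothelial guidance receptor, rose by 0.71 ± 0.13, a call lost at an adjusted p of 0.05 without wild-type array 2 and 0.051 without enarodustat array 3.

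Of 27 mesangial and contractile genes 5 rose and 1 fell, with a median of 0.54, against 7 and 1 and a median of 0.69 in ob/ob vehicle. Leaving out enarodustat array 1 or 3 left 3 rises, and leaving out vehicle array 3 gave 8. Acta2, the smooth muscle actin of activated mesangium, rose from 3.42, 3.11 and 2.64 to 4.77, 4.59 and 5.10, by 1.76 ± 0.31 (adjusted p = 0.0115), although its 3 probes ranged from 0.00 to 1.76. Mgp, an inhibitor of calcification, rose by 1.88 ± 0.30, and Serpine2, a protease inhibitor, by 1.16 ± 0.15, with 0.10 on its other probe. Sfrp2, a secreted Wnt modulator, fell by 1.73 ± 0.41, a call lost without wild-type array 1 or 2 or any 1 enarodustat array (adjusted p up to 0.105).

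The HIF target genes of glycolysis and glucose transport that passed the test moved upward. Of 26 tested, 14 rose and 0 fell, with a median difference of 0.62 and 7 rises called with any 1 array left out. Differences were negative in 4, the lowest at -1.09. All enarodustat arrays lay above all wild-type arrays in 18 of the 26 and below them in 2, against 16.8% and 14.0% of all features. In ob/ob vehicle, set against the same wild-type arrays, 3 rose, with a median of 0.31. Between the ob/ob groups the median difference was 0.27, 11 of the 26 had an unadjusted p under 0.05, and none was called, the lowest adjusted p being 0.377. The 14 became 7 without wild-type array 1, 8 without wild-type array 2, and 7 without enarodustat array 2 or 3, and 4 with the row on the slide as a block. With the mean of distal nephron markers as a covariate 9 were called.

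Slc16a3, the lactate exporter MCT4, read -0.94, -1.15 and -1.26 in wild type, -0.34, -0.40 and -0.17 in ob/ob vehicle and 0.35, 0.72 and 0.48 with enarodustat. The 3 groups did not overlap, and the rise against wild type was 1.63 ± 0.14 (adjusted p = 0.00131), or 3.10-fold. Against ob/ob vehicle it was 0.82 ± 0.14 (adjusted p = 0.377). Pdk1, the kinase that closes pyruvate dehydrogenase, read -1.83, -1.66 and -1.55, then -0.72, -1.06 and -0.52, then -0.26, 0.56 and 0.07 in the same order of groups. These groups also did not overlap, the rise was 1.80 ± 0.22 (adjusted p = 0.00371), and its 4 probes ranged from -0.16 to 1.80. Pfkl, the liver form of phosphofructokinase, read -0.31, -0.43 and -0.09 in wild type, 0.26, -0.04 and -0.04 in ob/ob vehicle and 0.68, 0.87 and 0.85 with enarodustat, a rise of 1.08 ± 0.14. The enarodustat arrays lay above all others.

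Smaller rises came from other glycolytic enzymes. Aldoa, aldolase A, read 6.98, 7.01 and 7.0 in wild type and 7.54, 7.70 and 7.71 with enarodustat, by 0.65 ± 0.10. Gpi1, glucose phosphate isomerase, rose by 0.59 ± 0.10, and Pkm, pyruvate kinase, by 0.75 ± 0.13. The other rises on this list, given here to account for its members, were those of Pfkfb3, which makes the activator of phosphofructokinase, Tpi1, Gapdh, Pgk1, Pgam1 and Eno2, enzymes of the successive lower steps, and Ldha, which makes lactate. They lay between 0.38 ± 0.10 (Pgam1) and 1.1 ± 0.26 (Pfkfb3), and the enarodustat arrays of each lay above all of its wild-type arrays. Of them, Pgk1, at 5.61, 5.52 and 5.61 in wild type and 6.08, 6.46 and 6.35 with enarodustat, was called with any 1 array left out. Slc2a1, the glucose transporter GLUT1, was not among the rises, at 1.27, 1.20 and 1.16 in wild type and 0.97, 1.42 and 1.04 with enarodustat (-0.06 ± 0.15). Aldoc, aldolase C, was singled out after its values were seen. It read -2.66, -1.26 and 0.20 in wild type, -2.77, -1.36 and -1.0 in ob/ob vehicle and 1.08, 2.23 and 1.39 with enarodustat. Its difference of 2.80 ± 0.72 was called (adjusted p = 0.0441), a call lost without any 1 of wild-type arrays 1 and 2, vehicle arrays 2 and 3 and the enarodustat arrays (adjusted p up to 0.117).

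**Figure D4:**
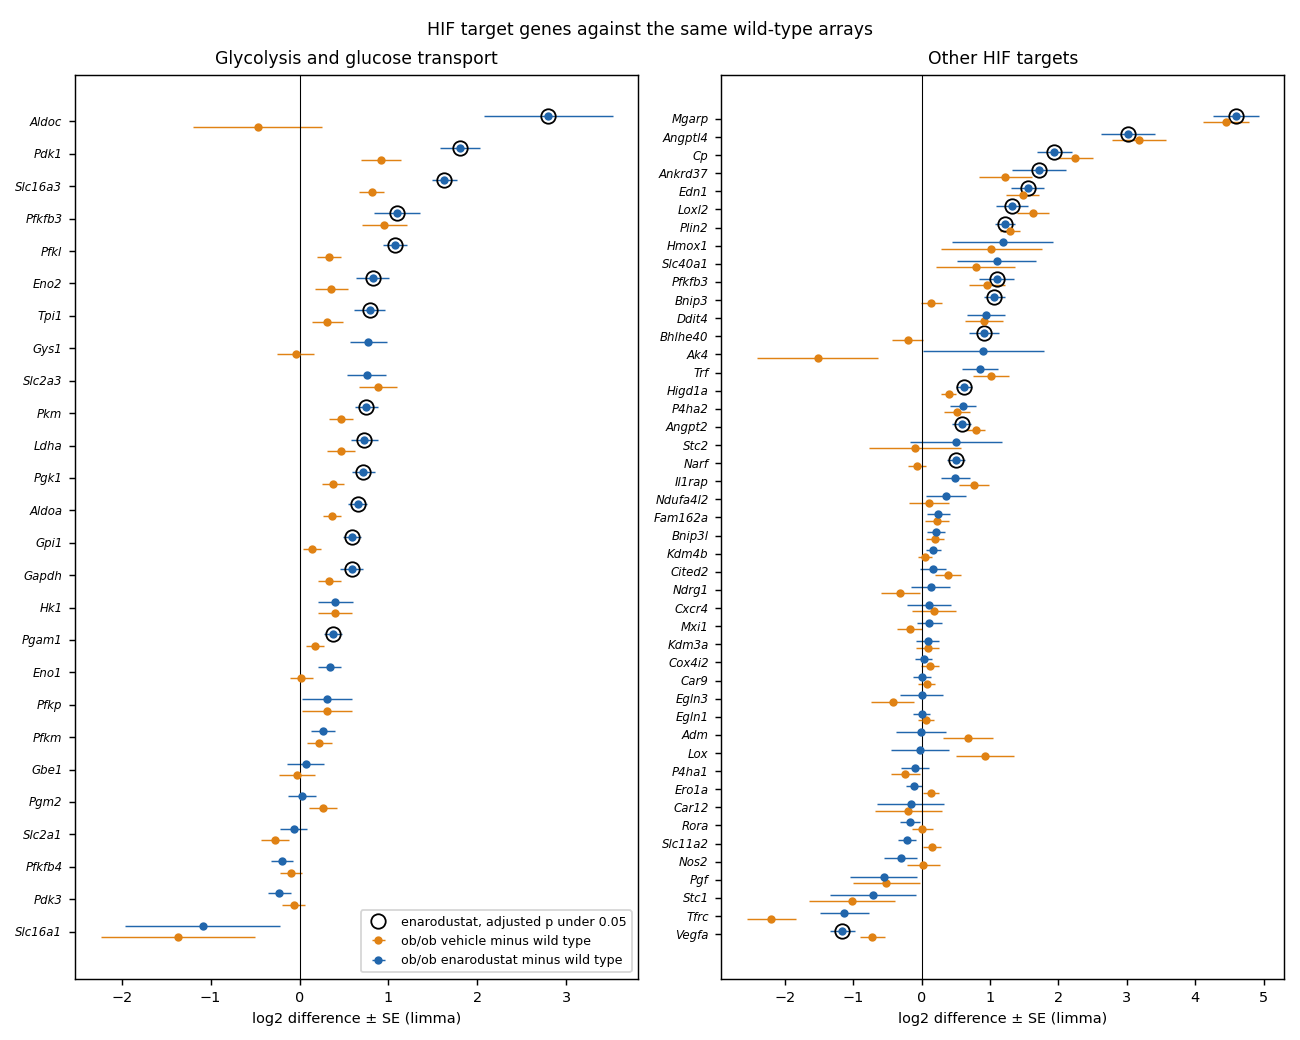
Difference from wild type (x axes, log2 ± SE from limma) of HIF target genes of glycolysis and glucose transport (left) and of other HIF targets (right, 1 not shown) in ob/ob enarodustat (blue) and ob/ob vehicle glomeruli (orange). Black rings mark enarodustat differences at an adjusted p under 0.05. On the left 14 of 26 genes are ringed, and Vegfa is the ringed gene below 0 on the right.

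Bnip3, a mitochondrial protein that starts mitophagy and a HIF target, rose while the ob/ob vehicle arrays overlapped wild type. Bnip3 read 2.40, 2.30 and 2.60 in wild type, 2.74, 2.37 and 2.62 in ob/ob vehicle and 3.26, 3.68 and 3.55 with enarodustat. The enarodustat arrays lay above all 6 others. The rise against wild type was 1.06 ± 0.16 (adjusted p = 0.0067) and against ob/ob vehicle 0.92 ± 0.16 (adjusted p = 0.377). Its probe lies on chromosome 7 at 146082760 to 146082819 (minus strand, mm9).

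HIF binds the core letters ACGTG or GCGTG. The 250 bases before the RefSeq start (GRCm38.p6) are shown for Bnip3 and for the 3 glycolysis list genes with the lowest unadjusted p between the wild-type and enarodustat groups among those that hold the letters. They were read from the gene's own strand, 5′ to 3′, with capitals for each match on either strand.
Bnip3 (chr7:138909507-138909756, minus strand): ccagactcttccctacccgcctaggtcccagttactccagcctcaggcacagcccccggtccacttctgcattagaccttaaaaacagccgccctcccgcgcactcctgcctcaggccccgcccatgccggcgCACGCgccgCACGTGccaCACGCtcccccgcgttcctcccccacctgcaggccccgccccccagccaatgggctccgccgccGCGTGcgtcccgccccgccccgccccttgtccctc
Slc16a3 (chr11:120948817-120949066, plus strand): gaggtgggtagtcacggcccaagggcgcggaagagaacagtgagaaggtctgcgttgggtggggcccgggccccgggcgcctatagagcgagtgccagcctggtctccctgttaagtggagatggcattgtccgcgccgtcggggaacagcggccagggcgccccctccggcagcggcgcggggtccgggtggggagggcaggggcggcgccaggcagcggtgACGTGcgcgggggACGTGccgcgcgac
Pdk1 (chr2:71872974-71873223, plus strand): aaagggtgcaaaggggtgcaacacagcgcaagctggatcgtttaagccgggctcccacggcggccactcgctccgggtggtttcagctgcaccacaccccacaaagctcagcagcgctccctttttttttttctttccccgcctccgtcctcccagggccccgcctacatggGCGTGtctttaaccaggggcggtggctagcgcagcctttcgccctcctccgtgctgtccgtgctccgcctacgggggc
Pfkl (chr10:78009808-78010057, minus strand): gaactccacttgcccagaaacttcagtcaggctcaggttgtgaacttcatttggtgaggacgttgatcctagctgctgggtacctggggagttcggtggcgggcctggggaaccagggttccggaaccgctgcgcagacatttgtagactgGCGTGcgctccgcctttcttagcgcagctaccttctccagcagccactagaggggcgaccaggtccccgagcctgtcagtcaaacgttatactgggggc
Matches within these windows can overlap on the 2 strands. The Bnip3 window held 5 matches, at 117, 108, 107, 99 and 35 bases before the start, that of Slc16a3 held 2, at 27 and 14 bases, and those of Pdk1 and Pfkl held 1 each, at 78 and 99 bases. The letters are common: 38.6% of 32851 such windows and 41.5% of genes hold them. Of the 25 tested glycolysis list genes with a window 20 held them (80.0%), and of the 14 that rose 11 did (78.6%). A match describes the sequence and is not evidence of binding.

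Of the 47 other HIF targets tested, 14 rose and 1, Vegfa, fell. Without enarodustat array 1 the rises numbered 9, and without wild-type array 1 or 3 the falls numbered 2. Ob/ob vehicle had 8 higher and 2 lower. Angptl4, an inhibitor of lipoprotein lipase, read 2.25, 2.03 and 1.06 in wild type, 4.79, 4.38 and 5.71 in ob/ob vehicle and 4.73, 4.54 and 5.12 with enarodustat, a rise of 3.02 ± 0.40 (8.09-fold). Cp, the ferroxidase ceruloplasmin, rose by 1.94 ± 0.26, and Plin2, which coats lipid droplets, by 1.22 ± 0.14. For each of them the ob/ob vehicle arrays also lay above all wild-type arrays.

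Other HIF-linked genes did not pass the test. Car9, a carbonic anhydrase widely used as a HIF marker, read -1.93, -2.03 and -1.83 in wild type and -1.88, -1.88 and -2.02 with enarodustat. Egln3, a HIF prolyl hydroxylase that is itself a HIF target, read -1.93, -1.43 and -2.86 and then -1.93, -2.10 and -2.20, and Hmox1, heme oxygenase, differed by 1.19 ± 0.74. Tfrc, the transferrin receptor, read -2.21, -1.13 and -1.16 in wild type, -4.27, -3.09 and -3.73 in ob/ob vehicle and -2.65, -2.45 and -2.79 with enarodustat. The enarodustat arrays lay between the others without overlap, and the difference from wild type of -1.13 ± 0.36 (adjusted p = 0.0838) was called only without wild-type array 1 (adjusted p = 0.0344). Epo and Hk2 did not pass the filter on dim probes.

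Among 14 regulators of the HIF pathway, 2 rose and 1 fell, against 6.10% higher and 4.09% lower over all features. Hif1a rose from 2.17, 2.18 and 1.93 to 2.75, 2.85 and 2.89 (0.74 ± 0.13), with ob/ob vehicle at 2.85, 2.81 and 3.13, and its 3 probes gave 0.23 to 0.88. Hif3a, whose product can restrain HIF, read -4.83, -5.01 and -4.81 in wild type, -0.32, -3.64 and 0.09 in ob/ob vehicle and 0.35, -1.61 and 1.15 with enarodustat. In wild type 2 of 3 arrays read it well above background. Its rise of 4.85 ± 0.99 was lost without any 1 of the wild-type arrays or enarodustat array 1 or 3 (adjusted p up to 0.0674). Arnt2, a partner of HIF alpha subunits, fell by 1.24 ± 0.19. Epas1, for HIF-2 alpha, differed by 0.33 ± 0.14 and was not called.

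Macrophage genes rose. Of 37 monocyte and macrophage genes 21 rose and 0 fell, with a median of 1.48 (1 fell without vehicle array 1 or 3), and in ob/ob vehicle 24 rose, with a median of 1.81. The rises numbered 13 without wild-type array 2 and 12 without enarodustat array 1, 7 with the row on the slide as a block, and 8 without wild-type array 3 and enarodustat array 2 together. The list's median level was -2.59, -2.30 and -2.23 in wild type and -0.37, -1.08 and -1.52 with enarodustat. Lgals3, for the galectin-3 of activated macrophages, read 0.45, 0.93 and 1.18 in wild type, 3.74, 4.05 and 4.05 in ob/ob vehicle and 3.37, 3.58 and 3.50 with enarodustat. Lgals3 rose 6.21-fold (2.63 ± 0.19, adjusted p = 0.000692), and all enarodustat arrays were below all vehicle arrays, at a difference of -0.46 with an adjusted p of 0.708.

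Ctss, a lysosomal protease of antigen-presenting cells, rose 4.997-fold, Fcgr4 and Fcer1g, an Fc receptor and its signalling chain, 5.43- and 2.82-fold, and Fcgr1, the high-affinity Fc receptor, which 1 of 3 enarodustat arrays read well above background, at least 1.79-fold. Laptm5, a lysosomal protein of leukocytes, rose by 1.1 ± 0.15. Adgre1, for the macrophage antigen F4/80, read -4.34, -3.60 and -3.86 in wild type and -1.04, -2.35 and -2.36 with enarodustat. Its call was lost without any 1 of these 6 arrays (adjusted p up to 0.0953). That of Cd68, another macrophage antigen (1.16 ± 0.26), was lost without wild-type array 2 or 3 or enarodustat array 1 or 2 (adjusted p up to 0.0814). Spp1, for osteopontin, was not called, at 0.11, 0.90 and 2.23 in wild type and 2.20, 3.84 and 2.25 with enarodustat.

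Of 32 chemokine, cytokine and adhesion genes 10 rose and 0 fell, and 11 rose in ob/ob vehicle. Slpi, a secreted inhibitor of leukocyte proteases, read -2.26, -1.96 and -1.99 in wild type, 1.49, 1.90 and 1.5 in ob/ob vehicle and 0.80, 0.03 and 0.44 with enarodustat. The enarodustat arrays lay between the other groups without overlap: the rise against wild type was 2.49 ± 0.21 (adjusted p = 0.00114), and the difference from ob/ob vehicle was -1.21 (adjusted p = 0.377). Its 2 probes gave -0.30 and 2.49. Mif, a cytokine that holds macrophages in place and a known HIF target, rose in the reverse order of the ob/ob groups. Mif read 3.20, 3.26 and 3.47 in wild type, 3.64, 3.66 and 3.68 in ob/ob vehicle and 4.46, 5.21 and 4.61 with enarodustat, a rise of 1.45 ± 0.19 against wild type (adjusted p = 0.00444) and a difference of 1.1 from vehicle (adjusted p = 0.377). Icam1, an adhesion molecule for leukocytes, rose by 1.37 ± 0.18, and the chemokines Ccl6 and Ccl9 by 1.98 ± 0.33 and 1.54 ± 0.28. Vcam1, another adhesion molecule, was not called (0.41 ± 0.43).

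Of 18 lymphocyte and natural killer genes 10 rose and 0 fell, with 4 in ob/ob vehicle. The 10 became 6 without wild-type array 1 or enarodustat array 1 and 5 without enarodustat array 3. Lck, the T cell kinase, went from -1.23, -1.14 and -1.44 to -0.09, -0.16 and 0.10, by 1.22 ± 0.15 (adjusted p = 0.00384). Cd52, a leukocyte surface protein, Nkg7, of cytotoxic granules, Coro1a, an actin regulator of leukocytes, and Cd2, a T cell adhesion receptor, rose by 1.30, 1.68, 1.42 and 1.38, with Cd2 well above background on 2 of 3 wild-type arrays. Of 11 neutrophil genes 1 rose and 1 fell, against 6.10% higher and 4.09% lower over all features. Ly6g rose by 1.65 ± 0.26, and Ltf, for lactoferrin, fell by 0.72 ± 0.19, a call lost in all fits with 1 array left out except that without wild-type array 3 (adjusted p up to 0.137).

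Antigen presentation genes rose, but 1 call held with any 1 array left out. Of 19 MHC genes 11 rose and 0 fell, with a median of 0.99, and 3 rose in ob/ob vehicle. Without wild-type arrays 1, 2 and 3 in turn the rises were 3, 2 and 5, and without enarodustat arrays 1, 2 and 3 they were 5, 4 and 5, and 1 was called with the row on the slide as a block. B2m, the light chain of MHC class I, went from 6.19, 5.88 and 6.40 to 6.91, 7.30 and 7.04, by 0.93 ± 0.16, and was called in each of those fits. H2-Ab1, of MHC class II, rose by 1.67 ± 0.33, a call lost without wild-type array 1 or enarodustat array 1 or 2 (adjusted p up to 0.0598). H2-M3, of class I, rose by 0.62 ± 0.12, and its call was lost without wild-type array 2 (adjusted p = 0.0599).

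Interferon-stimulated genes gave 18 rises and 1 fall among 38 tested, with a median of 0.86. In 32 of the 38 all enarodustat arrays lay above all wild-type arrays, against 16.8% of all features. The rises became 10, 7 and 8 without wild-type arrays 1, 2 and 3 and 9 without vehicle array 2. With the mean of distal nephron markers as a covariate 9 were called and with the row on the slide as a block 4. In ob/ob vehicle 7 rose and 1 fell. Bst2, the antiviral tetherin, read 1.84, 1.74 and 1.61 in wild type, 2.73, 2.76 and 2.88 in ob/ob vehicle and 3.46, 3.51 and 2.81 with enarodustat, a rise of 1.54 ± 0.19. Oasl2, an oligoadenylate synthetase-like protein, rose by 1.58 ± 0.19 and Ifit3, an antiviral protein that interferon induces, by 1.67 ± 0.25. Irf8, Irf1 and Ifitm3, 2 transcription factors and a membrane restriction factor, rose by 0.86, 0.98 and 0.97, although the other Irf8 probe gave 0.21. The fall was in Gbp5, a guanylate-binding protein, whose 2 probes went in opposite directions, from -0.60 to 1.22. Its call was lost without wild-type array 2 or any 1 of the 6 ob/ob arrays (adjusted p up to 0.0998).

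Of 21 complement genes 5 rose and 1 fell. Without wild-type array 2 or enarodustat array 1 the rises were 3, and without vehicle array 2 they were 8, while without vehicle array 3 the falls were 2. C5ar1, the receptor for C5a, rose at least 1.81-fold, with 2 of 3 enarodustat arrays well above background, and C1ra and Serping1, a protease of the classical pathway and its inhibitor, rose by 1.17 ± 0.18 and 1.33 ± 0.22. Cd55, the membrane decay-accelerating factor, read 3.58, 3.72 and 3.54 in wild type, 2.92, 3.00 and 3.07 in ob/ob vehicle and 2.35, 1.89 and 2.68 with enarodustat. Its groups did not overlap, and it fell by 1.31 ± 0.19. C3 was not called (0.47 ± 0.50). Macrophage markers, 21 of 37 of them higher, moved with these leukocyte, antigen presentation and complement lists, and their part in the values was not tested.

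Matrix genes moved both ways. Of 69 genes of the matrix and the TGF-beta pathway 24 rose and 8 fell, with a median of 0.53, against 27 and 4 in ob/ob vehicle. Without enarodustat array 3 these were 14 and 4, and the falls were also 4 without wild-type array 2 or enarodustat array 1. Fn1, for fibronectin, read 0.14, 0.33 and -0.57 in wild type, 2.76, 2.85 and 1.84 in ob/ob vehicle and 2.40, 2.69 and 2.54 with enarodustat. It rose 5.97-fold (2.58 ± 0.31, adjusted p = 0.00331). Mmp10, a matrix metalloproteinase, read -0.95, -0.23 and -0.20 in ob/ob vehicle and -2.04, -2.75 and -1.66 with enarodustat. No wild-type array read it well above background, so it rose at least 8.05-fold, and its difference of -1.69 from vehicle had an adjusted p of 0.597. Col8a1, of the network collagen VIII, and Col14a1, a fibril-associated collagen, rose by 1.41 ± 0.17 and 1.32 ± 0.12. Inhba, for activin A, and Ltbp2, which binds to microfibrils, rose by 2.61 ± 0.34 and 2.37 ± 0.32.

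The falls included podocyte-made chains of the glomerular basement membrane, which are also on the podocyte list and were counted there. Col4a4 went from 4.40, 4.74 and 4.52 to 3.68, 3.63 and 3.84, a fall of 0.84 ± 0.12, and Col4a5 fell by 0.83 ± 0.13. Their partner Col4a3, named after its values were seen, fell at least 2.80-fold, a call lost without wild-type array 3 or enarodustat array 3 (adjusted p up to 0.06). Col4a1, of the more widespread collagen IV chains, was not called (0.19 ± 0.29). Col1a2, a chain of collagen I, fell by 1.06 ± 0.18, its 3 probes giving -1.06 to -0.41. Its partner chain Col1a1 differed by 1.81 ± 0.79 the other way, with overlapping groups, and was called only without wild-type array 2 (adjusted p = 0.0421). In wild type 2 of 3 arrays read Col1a1 well above background. Tgfb1 and Ccn2, the central profibrotic cytokine and connective tissue growth factor, were not called, at 0.70 ± 0.20 (adjusted p = 0.0602) and 0.43 ± 0.28.

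Of 16 oxidant-producing genes 6 rose and 0 fell (1 fell without wild-type array 2), and in ob/ob vehicle 6 rose. Ncf1, a subunit of the phagocyte NADPH oxidase, rose by 1.5 ± 0.21, Rac2, its GTPase, by 1.25 ± 0.15, and Aox1 and Xdh, aldehyde and xanthine oxidases, by 1.12 ± 0.14 and 1.90 ± 0.34. Ncf1 and Rac2 are genes of leukocytes, and the macrophage list moved with them. The part of leukocytes in the values of these oxidant-producing genes was not tested. Of 30 NRF2 targets 3 rose and 0 fell, against 6.10% of all features called higher. The rises were 5 with array-median scaling, with probes well above background on all 6 arrays or with the mean of a gene's probes, 6 with the proximal tubule or the distal nephron covariate (1 fell with the latter), and 10 with array weights. Nqo1, a quinone reductase, went from -3.51, -3.02 and -3.10 to -2.38, -1.66 and -1.88, by 1.24 ± 0.20, and Ftl1, the ferritin light chain, rose by 0.60 ± 0.10. Gpx1, glutathione peroxidase, rose by 0.64 ± 0.16, a call lost in all fits with 1 array left out except that without wild-type array 3 (adjusted p up to 0.113).

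Several genes of fat handling rose. Of 33 fatty acid oxidation genes 5 rose and 0 fell, and 3 rose without enarodustat array 3. Acaa2, the last enzyme of mitochondrial beta-oxidation, rose by 0.88 ± 0.15, and Cpt1a, which admits fatty acids to mitochondria, by 1.16 ± 0.22. Pparg, a nuclear receptor for lipids, rose by 1.98 ± 0.30. Of 28 genes of lipid and cholesterol synthesis Pparg was the only rise and 3 fell, with 1 fall left without wild-type array 2 or 3 or enarodustat array 1. Over all features 6.10% were called higher and 4.09% lower. Dhcr7, the last enzyme of cholesterol synthesis, went from -0.08, 0.02 and -0.01 to -1.29, -1.13 and -1.17, a fall of 1.17 ± 0.13 (adjusted p = 0.00297). The fall of Idi1, an isoprenoid enzyme (0.67 ± 0.15), was lost without wild-type array 2 or 3 or enarodustat array 1 or 3 (adjusted p up to 0.0927).

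Of 29 genes of leptin, insulin and adiponectin signalling 4 rose and 0 fell, with 2 rises left without wild-type array 1 or enarodustat array 1 or 3. Cdh13, the T-cadherin that binds adiponectin, went from -0.59, -0.34 and -0.65 to 1.31, 1.37 and 1.82, by 2.03 ± 0.17 (adjusted p = 0.00114), with ob/ob vehicle at 1.52, 1.21 and 1.32. Slc2a4, the insulin-responsive glucose transporter GLUT4, rose by 1.12 ± 0.17 from 1.13, 1.56 and 1.62 to 2.49, 2.44 and 2.74, while ob/ob vehicle read 2.08, 1.76 and 2.05 and was not called. Igfbp2, which binds insulin-like growth factors, rose by 1.11 ± 0.27, a call lost without any 1 array except vehicle arrays 2 and 3 (adjusted p up to 0.11). Lepr, the leptin receptor, was not called (-0.24 ± 0.18). Of 16 renin-angiotensin and endothelin genes 4 rose and 1, Enpep, fell, with 2 rises left without wild-type array 2 or enarodustat array 1 or 3 and 2 falls without wild-type array 3. Edn1, for endothelin 1, rose by 1.55 ± 0.24 and Ece1, which processes it, by 0.67 ± 0.12. Ren1, for renin, rose by 1.99 ± 0.45, a call lost without wild-type array 2 or 3 or enarodustat array 1 or 3 (adjusted p up to 0.0909).

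Of 40 subunits of oxidative phosphorylation limma called 0, with a median of 0.17 and 8 at an unadjusted p under 0.05, all higher. Over all features 26.8% had such a p, counting both directions. Differences were positive in 35 of the 40. In 12 all enarodustat arrays lay above all wild-type arrays, against 16.8% of all features. Of 29 unfolded protein response genes limma called 0, with a median of -0.12 and 1 at an unadjusted p under 0.05, and 2 fell without enarodustat array 1. Differences were positive in 30 of 32 cell cycle genes and negative in 2, with a median of 0.47. Of the 32 genes 2 rose, a share near the 6.10% of all features called higher. These were Ccnd1, cyclin D1, by 1.1 ± 0.15, and Mcm6, of the replicative helicase, by 0.64 ± 0.12, whose call was lost without enarodustat array 3 (adjusted p = 0.0502). Of 25 immediate early genes 1, Myc, rose, by 1.30 ± 0.33, with -0.02 on its other probe. Its call was lost without any 1 array except wild-type array 1, without which 3 of the list were called. Parietal epithelial genes gave 2 rises and 1 fall among 15, against 6.10% higher and 4.09% lower over all features. Aldh1a2, a retinoic acid-producing enzyme, rose by 1.62 ± 0.20, and Ncam1, an adhesion molecule, fell by 1.75 ± 0.18. The rise of Cd44 (1.01 ± 0.27) was lost without any 1 array except wild-type array 2 (adjusted p up to 0.125). Of 8 adipocyte genes tested 3 rose, Fabp4, Pparg and Plin4, and Adipoq, the most specific of the adipocyte genes, did not pass the filter on dim probes.

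Markers of cells outside the glomerular tuft varied between arrays. The median of 39 proximal tubule genes was 0.06, -0.47 and 2.73 in wild type, -0.76, -0.21 and -2.57 in ob/ob vehicle and -0.53, 1.96 and -0.77 with enarodustat. Wild-type array 3 and enarodustat array 2 were high, and Slc34a1, the phosphate transporter of this segment, was not called (-1.17 ± 1.35). The call in this list was Slc22a7, an organic anion transporter, which fell at least 15.98-fold, a call lost without wild-type array 2 or enarodustat array 3 (adjusted p up to 0.0551). The median of 25 distal nephron genes was -3.0, -1.21 and 0.98 in wild type, -2.73, -0.32 and -0.43 in ob/ob vehicle and 0.68, 1.65 and 0.77 with enarodustat. All enarodustat arrays were above wild-type arrays 1 and 2 and all vehicle arrays, and 10 of the 25 had an unadjusted p under 0.05 between the ob/ob groups. Pvalb, the parvalbumin of the distal tubule, read 0.10, 0.55 and 2.94 in wild type, -0.08, 2.53 and 1.82 in ob/ob vehicle and 4.22, 4.93 and 4.56 with enarodustat. Its rise of 3.37 ± 0.82 was lost without wild-type array 1 or 2, vehicle array 3 or any 1 enarodustat array (adjusted p up to 0.114), and 4 of the list were called without wild-type array 3. Calls over all features numbered 2289 with the mean of proximal tubule markers as a covariate and 2338 with the mean of distal nephron markers. Without wild-type array 3 and enarodustat array 2 they numbered 1292.

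Globin genes of red cells were higher in the enarodustat arrays than in wild type. The erythrocyte list had 5 rises among 11 genes, none of which held without any 1 array: leaving out wild-type array 2 or 3 or enarodustat array 1 or 3 left 0, leaving out vehicle array 1 or 2 left 2 and vehicle array 3 left 3. Hba-a1, an alpha globin, read 4.66, 2.59 and 2.62 in wild type, 4.62, 4.35 and 5.64 in ob/ob vehicle and 6.92, 5.22 and 7.66 with enarodustat, a difference of 3.31 ± 0.74 (adjusted p = 0.0272). Wild-type array 1 lay above the other wild-type arrays, and the enarodustat arrays lay above all of them. The beta globin probes, Hbb-bt and Hbb-b2, gave 3.53 and 3.26. Near-identical globin genes can share signal on a probe, so these are not separate measurements. Globin RNA can come from blood left in the capillaries, and more red cells and more RNA per cell cannot be told apart.

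**Figure D5:**
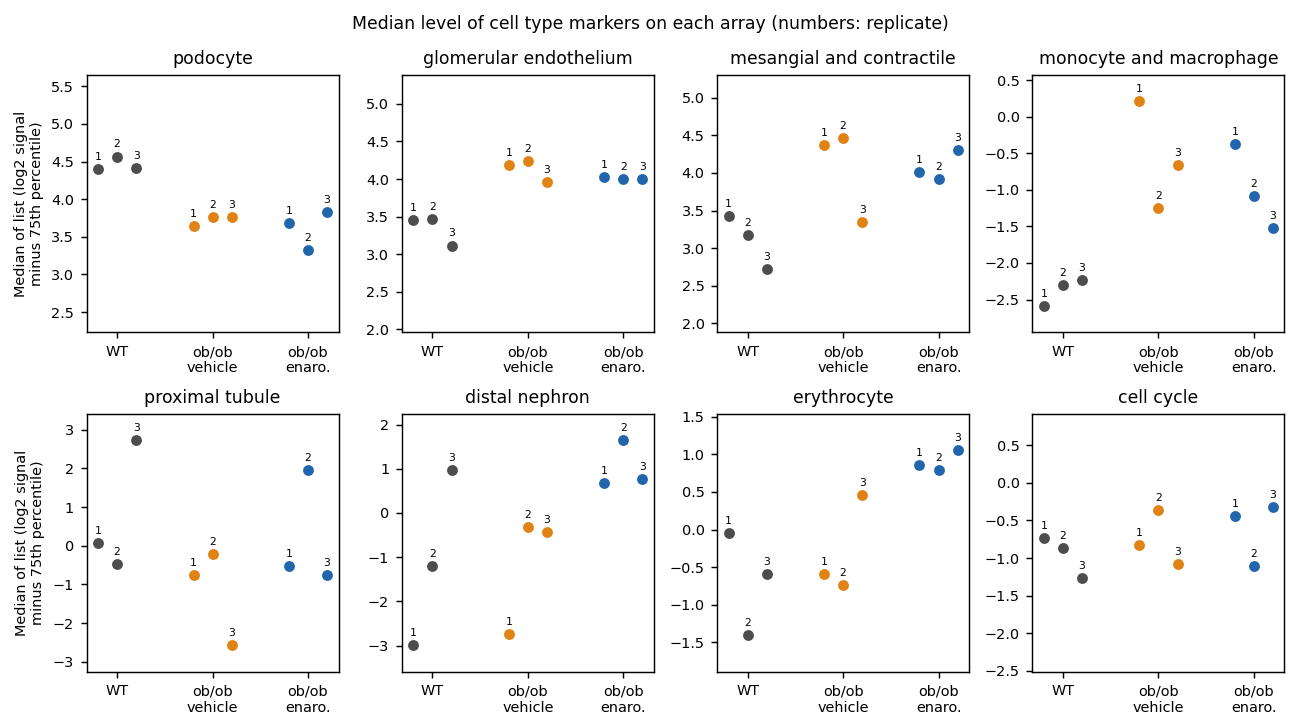
Median level of 8 marker lists on each array (y axes, log2 signal minus the 75th percentile of the array, with a separate range for each list) in wild-type vehicle (WT), ob/ob vehicle and ob/ob enarodustat glomeruli, with replicate numbers beside the points. Podocyte medians are lower in all ob/ob arrays. Proximal tubule medians are highest on wild-type array 3 (2.73) and enarodustat array 2 (1.96), and distal nephron medians are 0.68 to 1.65 with enarodustat.

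No gene passed the test between the ob/ob groups. Of genes called against wild type, the 5 with the lowest unadjusted p in that comparison were Bnip3, Ptgfr, Spata33, Lnx1 and Cadps2. Each had a limma adjusted p of 0.377. In each the enarodustat arrays lay above all 6 others, which a choice of genes by both comparisons favours. Ptgfr, the receptor for prostaglandin F2 alpha, read -1.47, -0.93 and -0.80 in wild type, -1.18, -1.22 and -1.18 in ob/ob vehicle and -0.19, 0.05 and 0.19 with enarodustat. It rose by 1.08 ± 0.18 against wild type, its other probe giving -0.07. Spata33, known as an adaptor of mitophagy in sperm, read -3.92, -4.21 and -3.67, then -3.88, -3.93 and -3.90, then -3.17, -2.71 and -2.84, and rose by 1.02 ± 0.17. Lnx1, a ubiquitin ligase, and Cadps2, which primes vesicles for secretion, rose by 1.77 ± 0.39 and 1.1 ± 0.22. Both calls were lost without wild-type array 1 or 2 or enarodustat array 2 or 3, at an adjusted p up to 0.0870 for Lnx1 and 0.0644 for Cadps2.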

How the data were processed

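Levels came from the deposited scanner files of 9 arrays (Agilent Feature Extraction 11.5.1.1, per the submitters' processing notes), whose processed intensity was background-corrected by that software, per the file headers (build mm9). The main value was its log2 minus the array's 75th percentile. The deposited table of log2 values has an unstated scale. It matched log2 processed intensity minus nearly that percentile (r = 1.0), with array medians from -3.10 to -2.93.

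Control spots and outlier spots were removed, and spots of a probe averaged. Of 56605 probes, 36671 were well above background on all arrays of at least 1 group and were kept. A gene was represented by 1 probe, the brightest on average over all arrays. RefSeq (GRCm38.p6) gave names by accession for 32989 probes, by symbol for 10228 and by synonym for 519. A further 2410 kept the file's name and 10459 had none. limma 3.58.1 in R 4.3.3 fitted the 3 groups together without a block (6 residual degrees of freedom before moderation), with Benjamini-Hochberg adjustment over all 24153 features, and was tested on simulated data. Replicate numbers were not used to pair the samples.

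The gene lists and the comparison were chosen with earlier results of these data known. Some genes are on more than 1 list, so the counts of different lists are not separate results. Named genes were first the 15 largest rises and falls called with any 1 array left out, with groups that did not overlap. To these were added 35 preset genes and up to 6 called members of each list and direction. The last were the 5 genes called against wild type with the smallest p between the ob/ob groups. Predicted and clone names were skipped among the rises, the falls and these 5 genes. Alternatives changed the normalization, background, filter, probe choice, samples, blocks and covariates. The row and distal nephron alternatives were added after seeing the data. A few genes of these lists are not reported here by name.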

Additional observations from a re-analysis of the deposited data

How the results depend on the processing

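Against 2461 features called (1473 higher, 988 lower), the counts stayed within 1.5 times under quantile and array-median scaling, normexp background correction and the deposited values. They also did with probes well above background on all 6 arrays and with the mean of a gene's probes. The same held for the counts with the mean of proximal tubule or distal nephron markers as a covariate. The counts were 1227 (747 higher, 480 lower) without the filter on dim probes, which raised the features tested to 37476, and 4530 (2531 and 1999) with array weights. With the slide as a block they were 1365 (772 and 593). Since only enarodustat array 3 was on the other slide, this block gave the same counts as leaving that array out. Without wild-type array 3 and enarodustat array 2 the counts were 1292 (810 and 482). Lower features numbered 641 in a fit of only the 6 arrays and 1633 with each probe tested by itself. With the row on the slide as a block, chosen after seeing the data as was the distal nephron covariate, they were 1151 (746 and 405). Leaving out 1 array gave 1215 to 2163 calls, 767 to 1309 higher and 448 to 854 lower. The share of features whose groups did not overlap was 30.81 to 44.24% with 1 array left out and 56.82% without wild-type array 3 and enarodustat array 2, since fewer arrays overlap less often. Higher features made up 53.6 to 64.8% of calls over all settings (59.9% in the report).

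With the replicate number as a block, 1954 features were called (1238 higher, 716 lower). Deviations of wild-type and enarodustat arrays of the same number correlated at 0.272, -0.308 and -0.304, and those of wild-type array 3 and enarodustat array 2 at 0.48. Deviations from a mean of 3 arrays are tied to each other, so this check cannot decide whether the numbers paired the samples. The block is reported here only.

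Signs turned for genes that were not called, except 2 that were. Of those called, Ranbp17 was 0.381 without the filter, through another probe, and Gbp5 0.311 as the mean of its probes. Car9 was -0.006 with normexp, -0.139 with the row block, -0.140 with the distal nephron covariate, and -0.046 to 0.055 with 1 array left out (below 0 without wild-type array 2 or enarodustat array 1 or 2). Egln3 was -0.013 with normexp, -0.461 with array weights, -0.102 with the row block, -0.142 with the tubule covariate and -0.383 without both arrays, and -0.393 to 0.323 with 1 array left out (below 0 without wild-type array 3 or enarodustat array 1). Emcn was -0.082, -0.092, -0.035 and -0.032 with quantile scaling, normexp, the row block and without both arrays, and -0.006 (without enarodustat array 2) to 0.091 with 1 array left out. Kdr was -0.071 with quantile scaling and -0.061 with normexp, C3 -0.145 with the row block and -0.037 (without enarodustat array 2) to 0.927 with 1 array left out, Col4a1 -0.003 with the distal nephron covariate, and Slc2a1 -0.204 to 0.024 (without enarodustat array 1) with 1 array left out. The causes were not tested. Of 160 named genes, 36 lost their call with the row block, 23 without wild-type array 2 and 21 without enarodustat array 3. Having 3 arrays a group limits precision, and values near background, given as bounds, carry no order.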
